A study of Mus musculus with 6 samples.

Results

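The genes described are 10 neuronal and glial genes of the newborn mouse skull, *Tubb3*, *Stmn2*, *Nefl*, *Nefm*, *Snap25*, *Syt1*, *Gap43*, *Map2*, *Dcx* and *Gfap*, out of 44556 gene symbols counted. They were taken by symbol, and they were chosen by the counts themselves, because neural genes differed strongly between libraries of the same genotype, so their spread within a genotype is described here and not tested. RNA-seq was carried out on parietal bone, a flat bone of the calvaria that lies over the brain, from C57BL/6 newborns, with 3 libraries from *OsxCre* mice and 3 from *OsxCre;Stat3fl/fl* littermates. Both groups carry the *Osx-Cre* transgene, whose Cre recombinase is mainly expressed in osteoblast precursors, and the *OsxCre;Stat3fl/fl* mice also carry loxP-flanked *Stat3* on both alleles. Values are CPM, the counts of a gene scaled to a library total of 1000000 counts after TMM scaling, which corrects library sizes for differences in composition.

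The counts on genes summed to between 8193651 and 12080044 per library. *Stat3* itself had between 134 and 149 CPM in *OsxCre* and between 153 and 155 CPM in *OsxCre;Stat3fl/fl*, so its gene-level count was not lower in the libraries labelled as deleted. Per the paper, the loxP sites flank only some exons of *Stat3*, and Cre is mainly expressed in osteoblast precursors. A count over the whole gene in whole tissue therefore need not fall and does not measure the deletion. The paper reports deletion of STAT3 protein by western blot in bone marrow mesenchymal stem cells of these mice. In each library 4 Y-linked genes together had at most 2 counts, whereas *Xist* had at least 7333, although the study describes male newborns. Osteoblast genes were abundant in every library, with at least 26260 CPM for 10 of them together in *OsxCre* and at least 23640 CPM in *OsxCre;Stat3fl/fl*.

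Bone holds nerve fibres but not the cell bodies of neurons. The calvaria is in contact with the meninges and the brain beneath it and is innervated by sensory nerves of the trigeminal ganglion and by sympathetic nerves. Most messenger RNA of a neuron lies in its cell body, in the brain or in a ganglion. Astrocytes, a type of glia of the brain, express *Gfap*, and STAT3 is a known activator of *Gfap* transcription in these cells. Which cells the *Gfap* counts came from was not tested. The tissue was sampled as a whole, and a smaller number of cells of a type cannot be told apart from less RNA in each cell. How neural RNA came into these libraries was not tested.

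The genes lie on 9 mouse chromosomes, and the neurofilament genes *Nefl* and *Nefm* are neighbours on chromosome 14, 30.4 kb apart in GRCm38 (chr14:68083863-68089095 and chr14:68119545-68125004). Promoter windows of 300 bases, from 250 bases before to 50 after the start in RefSeq (GRCm38.p6), were found for 5 of the 10 genes, *Tubb3*, *Syt1*, *Map2*, *Dcx* and *Gfap*. The windows of *Tubb3* and *Gfap* are shown because these genes had different orders among the libraries. Capitals mark matches to TTCNNNGAA, the palindrome bound by STAT proteins, and to CAGCACC and GGACAG, the left and right parts of the RE1 element bound by the neuronal repressor REST, each searched on both strands. The window of *Tubb3* is chr8:123411303-123411602 on the plus strand and that of *Gfap* is chr11:102897151-102897450 on the minus strand.
Tubb3: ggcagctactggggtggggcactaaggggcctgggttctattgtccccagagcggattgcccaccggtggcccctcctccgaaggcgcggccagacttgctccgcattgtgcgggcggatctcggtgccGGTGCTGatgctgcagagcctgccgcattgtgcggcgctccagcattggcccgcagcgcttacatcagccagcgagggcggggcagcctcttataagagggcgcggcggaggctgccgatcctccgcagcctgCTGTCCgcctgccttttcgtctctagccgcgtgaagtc
Gfap: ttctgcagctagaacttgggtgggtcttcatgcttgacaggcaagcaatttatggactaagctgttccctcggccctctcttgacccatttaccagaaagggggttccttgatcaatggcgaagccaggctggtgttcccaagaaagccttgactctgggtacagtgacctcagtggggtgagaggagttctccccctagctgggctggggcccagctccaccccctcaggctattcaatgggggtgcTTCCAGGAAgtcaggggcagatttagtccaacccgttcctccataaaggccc

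In the *Gfap* window, TTCCAGGAA matched the STAT palindrome, with its first base 2 bases before the start, so the match spans the start. Of 32851 promoter windows of the same length, 8.3% held a match. The *Tubb3* window held a match to each part of RE1 on the reverse strand, at positions -121 and 12 from the start. Each part was searched singly and the matches do not adjoin, so they are not a match to the whole element. A match to CAGCACC was found in 7.14% and one to GGACAG in 22.2% of all windows. These are letter matches, and binding was not measured.

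Among the neuronal genes, the order of the libraries was largely shared. *Tubb3*, the neuron-specific beta-tubulin, had 31.9, 153 and 24.4 CPM in *OsxCre* libraries 1, 2 and 3, and 115, 9.9 and 76.3 CPM in *OsxCre;Stat3fl/fl* libraries 1, 2 and 3. Thus *OsxCre* library 2 and *OsxCre;Stat3fl/fl* libraries 1 and 3 were high, *OsxCre* libraries 1 and 3 were low, and *OsxCre;Stat3fl/fl* library 2 was lowest. *Stmn2*, a stathmin that regulates microtubules in growing axons, had 32.4, 134 and 34.3 CPM in *OsxCre* and 121, 12.8 and 80.2 CPM in *OsxCre;Stat3fl/fl*, in nearly the same order.

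**Figure D1:**
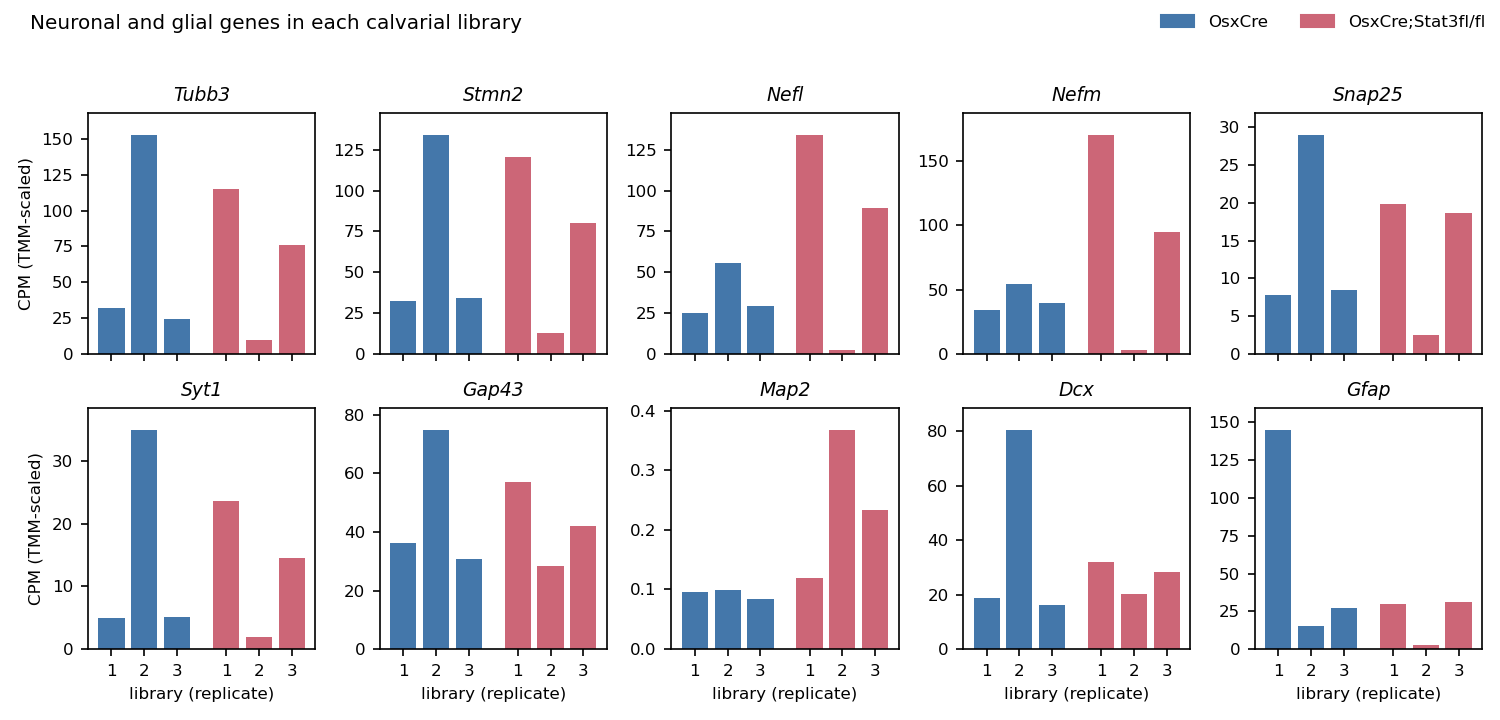
Bars give TMM-scaled CPM of each gene (y axis, starting at 0, own scale per gene) in each library (x axis, replicate number), with *OsxCre* in blue and *OsxCre;Stat3fl/fl* in red. *OsxCre* library 2 is the highest *OsxCre* library for 8 of the 9 genes above the detection floor and *Gfap* is highest in *OsxCre* library 1, while *OsxCre;Stat3fl/fl* library 2 is the lowest of its genotype for all 9.

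The genes of the synaptic vesicle machinery followed. *Snap25*, a SNARE protein of vesicle fusion, had 7.78, 29 and 8.45 CPM in *OsxCre* and 19.9, 2.45 and 18.7 CPM in *OsxCre;Stat3fl/fl*. *Syt1*, the calcium sensor of vesicle release, had 5.03, 34.9 and 5.11 CPM in *OsxCre* and 23.6, 1.956 and 14.6 CPM in *OsxCre;Stat3fl/fl*. For both genes the genotypes overlapped, with the highest library in *OsxCre* and the lowest in *OsxCre;Stat3fl/fl*.

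The neurofilament genes, which encode the light and medium subunits of the axonal intermediate filament, were highest elsewhere. *Nefl* had 24.8, 55.6 and 29.2 CPM in *OsxCre* and 134, 2.45 and 89.1 CPM in *OsxCre;Stat3fl/fl*, while *Nefm* had 34, 54.5 and 39.3 CPM in *OsxCre* and 170, 3.18 and 94.8 CPM in *OsxCre;Stat3fl/fl*. Here *OsxCre;Stat3fl/fl* libraries 1 and 3 exceeded all *OsxCre* libraries and library 2 fell below all of them. The highest *OsxCre;Stat3fl/fl* library had 54.8 times the *Nefl* level of the lowest, whereas the counts of *Nefl* stayed between 0.729 and 1.02 times those of *Nefm* in all 6 libraries.

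*Dcx*, a microtubule protein of migrating immature neurons, and *Gap43*, a growth-cone protein, varied less among the *OsxCre;Stat3fl/fl* libraries. *Dcx* had 18.7, 80.4 and 16.2 CPM in *OsxCre* and 31.9, 20.3 and 28.2 CPM in *OsxCre;Stat3fl/fl*, so *OsxCre* library 2 stood above the 5 other libraries. *Gap43* had 36.2, 74.8 and 30.6 CPM in *OsxCre* and 57.2, 28.4 and 42.2 CPM in *OsxCre;Stat3fl/fl*, the narrowest spread over the 6 libraries among the 9 genes. The ratio of *Nefl* to *Dcx* counts was 0.691 in *OsxCre* library 2 and 4.2 and 3.16 in *OsxCre;Stat3fl/fl* libraries 1 and 3, so the 3 libraries with the most neuronal RNA did not hold it in the same proportions.

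*Gfap* departed from the neuronal genes. It had 145, 15 and 27.5 CPM in *OsxCre* and 30.1, 2.93 and 31.3 CPM in *OsxCre;Stat3fl/fl*, and its highest level was in *OsxCre* library 1, where the neuronal genes were low. *OsxCre* library 2, with the most *Tubb3*, had the least *Gfap* of its genotype, and the ratio of *Gfap* to *Tubb3* counts ran from 0.0985 there to 4.54 in *OsxCre* library 1. *OsxCre;Stat3fl/fl* library 2 was the lowest for *Gfap* as it was for the neuronal genes.

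*Map2*, a microtubule protein of dendrites, had 1 count in each *OsxCre* library and 1, 3 and 2 counts in the *OsxCre;Stat3fl/fl* libraries. With 3 counts taken as the floor, between 0.248 and 0.366 CPM before TMM scaling, *Map2* was not detectable at this depth in any library, including those with over 100 CPM of *Tubb3*. *Map1b*, a related microtubule protein gene, had between 73.2 and 191 CPM. Why the *Map2* row held so few counts was not tested.

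Per kilobase of the longest coding transcript, *Stmn2*, *Tubb3* and *Gap43* were the most abundant, with medians over the 6 libraries of 30.1, 28.9 and 27.6 CPM per kb. *Nefm*, *Nefl* and *Gfap* followed with 12.8, 12.5 and 10.9 CPM per kb, then *Snap25* with 6.41, *Dcx* with 2.67 and *Syt1* with 2.04. The ranges of neighbours in this order overlapped in each case, and no gene exceeded the next in all 6 libraries.

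The comparison between genotypes asked whether loss of *Stat3* in osteoblast precursors went with a change in these genes, and no change was called over the 6 libraries. By the quasi-likelihood test of edgeR, adjusted over the 15600 genes tested, 0 of the 9 genes tested passed 0.05, whereas 1.26% of all genes did, 0.776% higher and 0.481% lower in *OsxCre;Stat3fl/fl*. The same count was 0 at an unadjusted p under 0.05, where 16.4% of genes passed, and 0 by DESeq2 and by limma-voom, which called 3.75% and 1.15% of genes. The genes were chosen for their spread within a genotype, which enters the error of this test, so a missed threshold does not show that the genotypes were alike. The count depended on the libraries numbered 2. Without both of them, a fit added after the values were seen, edgeR called 6 of the 9 genes, all higher in *OsxCre;Stat3fl/fl*, where 1.93% of all genes were called, and 8 of 9 did not overlap between genotypes, where 46.6% of all genes did not. For most of these genes the libraries left out are the highest *OsxCre* and the lowest *OsxCre;Stat3fl/fl* library, so the choice itself moves the difference upward.

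The log2 fold change was -0.05 for *Tubb3* (standard error 0.88, adjusted p = 0.989) and 0.10 for *Stmn2* (standard error 0.77, adjusted p = 0.971). *Nefl* and *Nefm* had the most positive values, 1.04 and 1.07 (standard errors 0.91 and 0.89, adjusted p = 0.625 and 0.607), and *Gfap* the most negative, -1.54 (standard error 0.94, adjusted p = 0.468). The value of *Gfap* rested on *OsxCre* library 1, without which it was 0.017, and limma-voom gave -0.11 for *Nefl* and -0.13 for *Nefm*. The remaining genes lay between -0.51 for *Dcx* and -0.13 for *Snap25*. The median over the 9 genes was -0.13, beside -0.004 over all genes tested, with 3 genes higher and 6 lower. Without *OsxCre* library 2, the values of *Tubb3*, *Snap25*, *Syt1*, *Gap43* and *Dcx* became positive, at 1.26, 0.75, 1.399, 0.35 and 0.62, and none of the 9 genes was called by edgeR. The median was then 1.09, and it was 0.37 without *OsxCre;Stat3fl/fl* library 2 and 0.23 under a replicate block, so its sign turned in these fits. It stayed negative when any other single library was left out, and was -0.51 without *OsxCre;Stat3fl/fl* library 1.

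**Figure D2:**
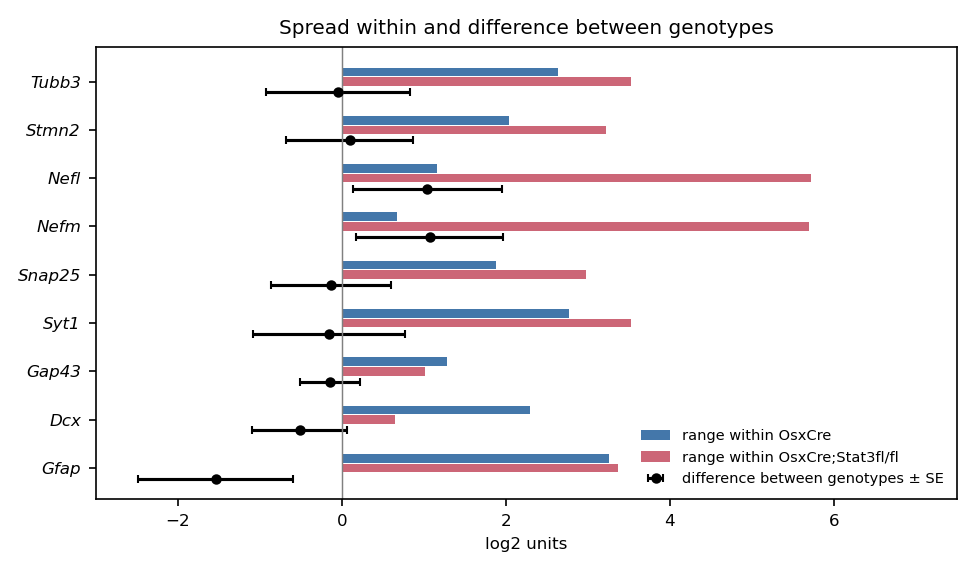
Bars give the range of log2(CPM + 0.1) among the 3 libraries of each genotype (blue *OsxCre*, red *OsxCre;Stat3fl/fl*), and black points the log2 fold change of *OsxCre;Stat3fl/fl* over *OsxCre* with its standard error, for the 9 genes tested. For each gene the longer bar exceeds the size of the fold change, up to 5.72 log2 units for *Nefl* against a fold change of 1.04.

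The spread within a genotype was wider than the difference between genotypes for 9 of 9 genes, which was also so for 85.2% of all genes tested. The genotypes overlapped for each of the 9, where 23% of all genes tested did not overlap. At least 4-fold between the highest and lowest library was reached by 5 of the 9 genes among the *OsxCre* libraries and by 7 among the *OsxCre;Stat3fl/fl* libraries, where 2.36% and 2.85% of all genes did, a difference that the choice of genes fixed. The biological coefficient of variation that edgeR fitted was between 0.31 for *Gap43* and 0.795 for *Nefl*, beside a median of 0.141 over all genes. Over the 6 libraries 0 of the 9 genes stayed within a 2-fold span, as 78.6% of all genes tested did.

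Summed, the 10 genes had 336, 631 and 215 CPM in *OsxCre* and 703, 84.7 and 476 CPM in *OsxCre;Stat3fl/fl*, or 394 ± 214 and 421 ± 313 CPM (SD, n = 3). The mean of *OsxCre;Stat3fl/fl* was 1.07 times that of *OsxCre*, whereas the highest library was 2.93 times the lowest within *OsxCre* and 8.29 times within *OsxCre;Stat3fl/fl*. The ratio of the means was 1.53 without *OsxCre* library 2, 1.5 without *OsxCre;Stat3fl/fl* library 2 and 0.711 without *OsxCre;Stat3fl/fl* library 1. In the highest library these genes held 0.0703% of the scaled counts.

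Most other neuronal genes had the same highest and lowest library within each genotype. In a list of 40 pan-neuronal genes, 38 were tested, and for 37 of the 38 *OsxCre* library 2 was the highest of its genotype and *OsxCre;Stat3fl/fl* library 2 the lowest, where 14.1% of all genes tested had both. Over all 6 libraries the highest was *OsxCre* library 2 for 20 of the 38 and *OsxCre;Stat3fl/fl* library 1 for 15. *Mapt*, which encodes the axonal protein tau, had 37.6, 146 and 36.3 CPM in *OsxCre* and 87.9, 14.7 and 57 CPM in *OsxCre;Stat3fl/fl*. *Uchl1*, a neuronal ubiquitin hydrolase, had between 33 and 127 CPM, and *Vamp2*, a vesicle SNARE gene, only between 107 and 144 CPM. None of the 38 was called between genotypes by edgeR, 0 passed at an unadjusted p under 0.05, and their median log2 fold change was 0.15.

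Genes of brain neurons and of peripheral neurons differed in which of the 6 libraries was most often the highest, but within each genotype their orders were largely shared. *OsxCre* library 2 was highest of its genotype for 17 of 20 brain-neuron and 11 of 12 peripheral-neuron genes, beside 33.4% of all genes tested. *OsxCre;Stat3fl/fl* library 2 was lowest of its genotype for 16 of the 20 and 12 of the 12, beside 30.7% of all genes tested. Of 20 brain-neuron genes tested, 14 were highest over the 6 libraries in *OsxCre* library 2 and 4 in *OsxCre;Stat3fl/fl* library 1. The 14 include *Camk2b*, with 107 CPM in *OsxCre* library 2 and 105 CPM in *OsxCre* library 3. The share of all genes tested that were highest over the 6 libraries in each library was not computed, for this list or the others. The 4 genes highest in *OsxCre;Stat3fl/fl* library 1 were *Slc17a6*, *Hpca*, *Nrn1* and *Pax6*. They had 18.6, 18.7, 12.8 and 6.11 CPM there, and 11.5, 9.2, 11.7 and 4.35 CPM in *OsxCre* library 2. The following 3 genes of the list were picked after their values were seen as clear cases for *OsxCre* library 2. *Tbr1*, a transcription factor of cortical neurons, had 7, 96 and 3 counts in *OsxCre* and 2, 2 and 7 counts in *OsxCre;Stat3fl/fl*. It was too low to be tested and is not one of the 20. *Gad1*, which makes the transmitter GABA, had 23.3 CPM in *OsxCre* library 2 and between 1.25 and 3.04 CPM in the other libraries, and *Dlx1*, a transcription factor of forebrain interneurons, had 31.4 CPM there and between 0.856 and 4.55 CPM elsewhere. *OsxCre;Stat3fl/fl* libraries 1 and 3, which had less *Stmn2* and more *Nefl* than *OsxCre* library 2, were low in these 3 genes. *Lhx6*, a transcription factor of interneurons on the same list, went the other way, with 7.32 CPM in *OsxCre* library 2 and between 9.29 and 12.5 CPM in the other libraries. *Emx2*, a cortical transcription factor, was among the 14. It had 2.57 CPM in *OsxCre* library 2, 2.33 CPM in *OsxCre;Stat3fl/fl* library 3 and 1.2 CPM at its lowest.

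Of 12 peripheral-neuron genes tested, 9 were highest over the 6 libraries in *OsxCre;Stat3fl/fl* library 1, 2 in *OsxCre;Stat3fl/fl* library 3 and 1 in *OsxCre* library 2. *Prph*, which encodes the intermediate filament peripherin of peripheral neurons, had 7.31, 56.7 and 22.8 CPM in *OsxCre* and 124, 2.08 and 70.7 CPM in *OsxCre;Stat3fl/fl*. *Scn10a*, a sodium channel of nociceptors, had 2.09, 24.1 and 4.6 CPM in *OsxCre* and 33.2, 0.611 and 27.1 CPM in *OsxCre;Stat3fl/fl*. *P2rx3*, an ATP receptor of sensory neurons, and *Avil*, an actin-binding protein of sensory neurons, were highest in *OsxCre;Stat3fl/fl* library 1, with 41.8 and 45.3 CPM. The order of these 4 genes among libraries was that of *Nefl* and *Nefm*.

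**Figure D3:**
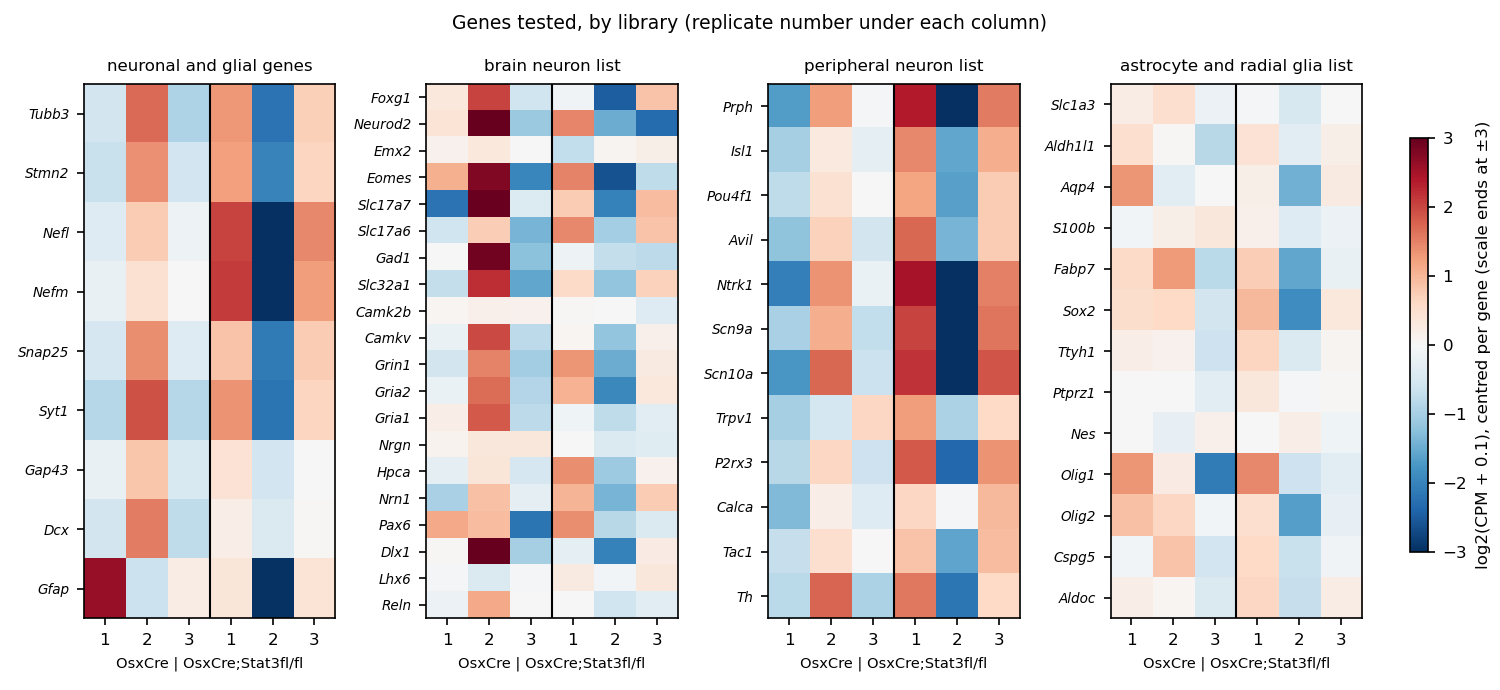
Colours give log2(CPM + 0.1) centred per gene over the 6 libraries (columns, replicate numbers, *OsxCre* left of the line and *OsxCre;Stat3fl/fl* right of it) for the genes tested among the 10 neuronal and glial genes and in 3 lists, with the scale ending at ±3. *Dlx1* and *Gad1* are reddest in *OsxCre* library 2, *Prph* and *Scn10a* in *OsxCre;Stat3fl/fl* library 1, and *Gfap* and *Aqp4* in *OsxCre* library 1.

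Of the 12 peripheral-neuron genes, 12 had a positive log2 fold change in *OsxCre;Stat3fl/fl*, with a median of 0.99, but 0 had an adjusted p under 0.05 and 1 an unadjusted p under 0.05. All 12 were lowest in *OsxCre;Stat3fl/fl* library 2 among the libraries of that genotype, as were 9 of the 9 neuronal and glial genes tested and 30.7% of all genes tested. Of the 20 brain-neuron genes, 5 had a positive log2 fold change, the median was -0.59, and 0 had an adjusted p under 0.05 and 1 an unadjusted p under 0.05. *Camk2b*, a kinase gene of that list, had between 73.8 and 107 CPM, and *Nrgn*, a postsynaptic protein gene, between 4.77 and 8.29 CPM, so neither varied as the neuronal genes did.

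Glial lists had a narrower range of mean levels, but *OsxCre;Stat3fl/fl* library 2 was again the lowest of its genotype for 12 of 13 astrocyte and radial glia genes and 14 of 16 Schwann cell genes tested. *Fabp7*, a fatty acid binding protein of radial glia, had 47.5, 76.7 and 18 CPM in *OsxCre* and 52.9, 10.6 and 26.9 CPM in *OsxCre;Stat3fl/fl*, a spread as wide as that of some neuronal genes. In the astrocyte and radial glia list, the mean of centred log2 CPM over 13 genes ran from -0.77 in *OsxCre;Stat3fl/fl* library 2 to 0.51 in *OsxCre;Stat3fl/fl* library 1. *Aqp4*, the water channel of astrocyte endfeet, had 61.6, 19.8 and 24.4 CPM in *OsxCre* and 27.7, 9.05 and 29.6 CPM in *OsxCre;Stat3fl/fl*, with its highest level in *OsxCre* library 1 as for *Gfap*. No gene lay near to *Gfap* over the 6 libraries: the nearest were *Aqp4*, *Rec8* and *A2m*, with root-mean-square differences of 0.84, 0.84 and 0.855 log2 units, of which only *Aqp4* is on the astrocyte list. Skeletal muscle also expresses *Aqp4*, and *Nes*, a progenitor filament gene, stayed between 143 and 193 CPM. Of 16 genes tested that mark Schwann cells, the glia of peripheral nerves, 0 were called, and *Sox10*, a transcription factor of these cells, was between 26.7 and 57.2 CPM.

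**Figure D4:**
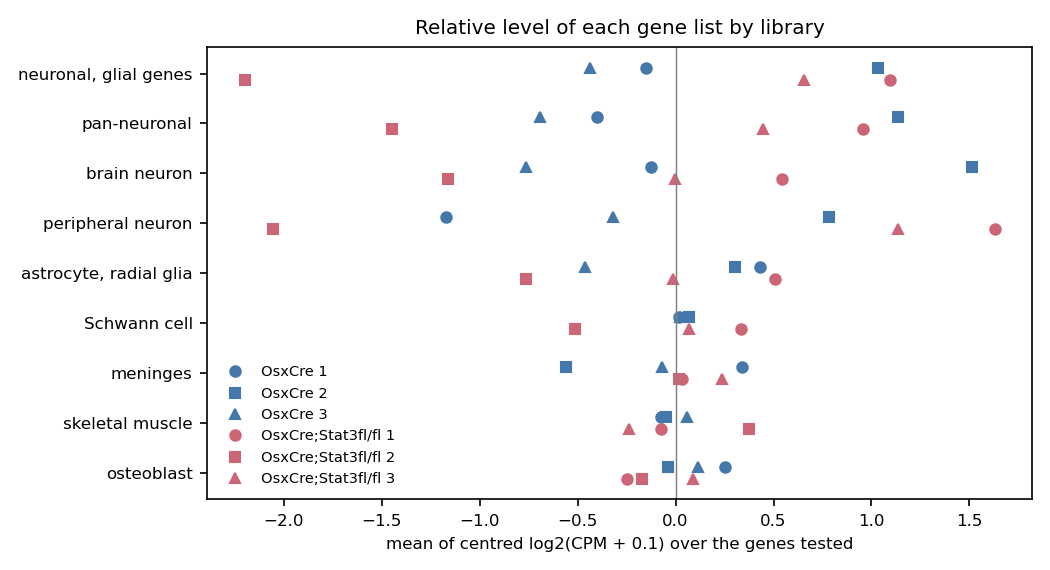
Each point gives the mean of centred log2(CPM + 0.1) over the tested genes (x axis) of a list (y axis, one row per list) in a library, with *OsxCre* in blue, *OsxCre;Stat3fl/fl* in red and the marker shape giving the replicate number. The neuronal lists spread from -2.20 to 1.63, whereas the skeletal muscle and osteoblast lists stay between -0.25 and 0.37.

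Meningeal and muscle genes had other library orders. *Ptgds*, which marks the arachnoid layer of the meninges, had 1172, 560 and 861 CPM in *OsxCre* and 966, 798 and 1245 CPM in *OsxCre;Stat3fl/fl*. Of 12 meningeal genes tested, 0 were highest in *OsxCre* library 2 among the *OsxCre* libraries, beside 33.4% of all genes tested. Skeletal muscle genes were highest in *OsxCre;Stat3fl/fl* library 2 among the libraries of that genotype for 16 of 16 genes, the library in which the neuronal genes were lowest. The share of all genes tested that were highest of their genotype in that library was not computed. The sum of these muscle genes was 55760 CPM there, 43910 and 37170 CPM in *OsxCre;Stat3fl/fl* libraries 1 and 3, and between 32600 and 35320 CPM in *OsxCre*. In the muscle list *Myh3*, the embryonic myosin heavy chain, rose (log2 fold change 1.72, adjusted p = 0.0204) and *Myh4*, a fast myosin heavy chain, fell (log2 fold change -3.61, adjusted p = 3.87e-05), and in the osteoblast list *Ibsp*, bone sialoprotein, fell (log2 fold change -0.66, adjusted p = 0.0213), all from edgeR. *Myh4* was called in all 14 alternatives other than the fit without both libraries numbered 2, which is not counted here, and *Myh3* and *Ibsp* in 9 each, with both lost under the replicate block and without *OsxCre* library 1, *OsxCre* library 2, *OsxCre;Stat3fl/fl* library 1 or *OsxCre;Stat3fl/fl* library 3. Keratinocyte genes, which mark skin, summed to between 8.96 and 17.6 CPM, and 0 of 3 tested were called. The keratin genes of basal skin cells were too low to be tested, but they were highest in *OsxCre;Stat3fl/fl* libraries 1 and 3, as *Nefl* was. *Krt15* had 0.854, 0.989 and 0.586 CPM in *OsxCre* and 4.55, 0.611 and 5.01 CPM in *OsxCre;Stat3fl/fl*, and *Krt5* had 0, 0.791 and 0.0837 CPM and 2.87, 0.245 and 2.45 CPM. Without *OsxCre;Stat3fl/fl* library 2 *Krt15* was tested and called (log2 fold change 2.56, adjusted p = 0.0256 by edgeR), 1 of the 14 alternatives to call it. The library left out was the low one of that genotype. *Krt15* could then pass the filter on *OsxCre;Stat3fl/fl* libraries 1 and 3, where it was high, so this call follows in part from the library left out. The part of muscle, meningeal or skin content in the neuronal values was not tested.

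Genes outside the 10 whose pattern lay near to their mean included *Nacad*, *Slc45a1*, *Sarm1*, *Csmd1*, *Cend1*, *Map3k9*, *Diras1* and *Syp*, with root-mean-square differences from 0.144 to 0.231 log2 units over the 6 libraries, among 3339 genes that spanned at least 2-fold. *Syp*, the vesicle protein synaptophysin, had 15.8, 49.6 and 14.2 CPM in *OsxCre* and 50.1, 6.24 and 34.5 CPM in *OsxCre;Stat3fl/fl*. For *Tubb3* singly the nearest gene was *Stmn3*, another stathmin gene (0.0821 log2 units), and for *Nefl* and *Nefm* each was the nearest to the other (0.18 log2 units).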

How the data were processed

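The authors deposited, for each of the 6 libraries, a table of whole-number counts for 44556 gene symbols, without normalization. Per the labels, HISAT2 and GRCm38 belong to the processing, whereas the paper's Methods name TopHat, mm9 and Cufflinks; the counting program, its annotation and its use of strand are not given in the sources used here. Positions and promoters are from RefSeq (GRCm38.p6), and transcript lengths from GENCODE for NCBIM37.

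Low counts were removed by filterByExpr at a minimum count of 10 and a minimum total of 15, and the rest compared in R 4.3.3 with edgeR 4.0.16 (TMM, quasi-likelihood test, two-sided, Benjamini-Hochberg adjustment over 15600 genes). The standard error is the log2 fold change divided by the square root of F. Log2 values used CPM + 0.1. Libraries of a genotype were not duplicates (chi-square per degree of freedom between 8.17 and 17.1). The sources give 3 mice per genotype. The floor of 3 counts covers counting error only. Alternatives were other scalings, other filters, DESeq2 1.42.0, limma-voom (limma 3.58.1), the replicate number as a block, and leaving out each library. A fit without both libraries numbered 2 was added after the data were seen. On counts simulated for the genotype comparison, with 200 genes changed 2-fold, edgeR recovered 57% of them among 15409 genes with 16 other calls. The 200 were drawn from all genes tested, whose median coefficient of variation was 0.141. For the neuronal and glial genes tested it was between 0.31 and 0.795, so the 57% does not hold for them.

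The 10 genes and the 9 gene lists were chosen with earlier results of these data known. The genes named are the 10, *Stat3*, up to 4 genes with the highest mean CPM of a list, list genes called, and the 10 genes with the nearest pattern. *Tbr1*, *Gad1*, *Dlx1*, *Emx2*, *Slc17a6*, *Hpca*, *Nrn1*, *Pax6*, *Nrgn*, *Krt5*, *Krt15*, *Rec8*, *A2m*, *Aqp4*, *Mapt*, *Sox10*, *Syn2*, *Gpm6a*, *Slc1a2*, *Mbp*, *Stmn3*, *Erbb3*, *Pmp2*, *Xist* and the Y-linked genes were named after their values were seen. Some genes that this rule would name are not reported here.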

Additional observations from a re-analysis of the deposited data

How the results depend on the processing

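Apart from the fit without both libraries numbered 2, none of the 14 alternatives gave an adjusted p under 0.05 for any of the 9 genes tested, the lowest being 0.0595, and 108 of 126 fold changes kept their direction. The direction turned with the replicate number as a block for *Tubb3* (0.30) and *Syt1* (0.32), and with limma-voom, which averages log values, for *Stmn2* (-0.058), *Nefl* (-0.11) and *Nefm* (-0.13). Leaving out each library in turn gave log2 fold changes from -0.68 to 1.26 for *Tubb3*, from -0.51 to 1.09 for *Stmn2*, from 0.33 to 1.62 for *Nefl*, from 0.21 to 1.65 for *Nefm*, from -0.50 to 0.75 for *Snap25*, from -0.84 to 1.399 for *Syt1*, from -0.41 to 0.35 for *Gap43*, from -0.88 to 0.62 for *Dcx* and from -2.004 to 0.017 for *Gfap*. The highest *Tubb3*, *Snap25*, *Syt1*, *Gap43* and *Dcx* values came without *OsxCre* library 2 and that of *Gfap* without *OsxCre* library 1. Genes without overlap between genotypes numbered from 0 to 2 of the 9 over these fits, with 1 without *OsxCre* library 2 and 2 without *OsxCre;Stat3fl/fl* library 2, and the widest fold of the summed CPM within a genotype went from 2.92, without *OsxCre;Stat3fl/fl* library 2, to 8.34. In the other lists 3 genes were called, with 8 without the filter, 14 by DESeq2, 1 with the replicate block and from 1 to 5 with a library left out. It was 1 without *OsxCre* library 1, without *OsxCre* library 2, without *OsxCre;Stat3fl/fl* library 1 and without *OsxCre;Stat3fl/fl* library 3, where *Myh4* was called each time, and 5 without *OsxCre;Stat3fl/fl* library 2. Without both libraries numbered 2, chosen after the values were seen, 6 of the 9 genes were called and 8 did not overlap, the median log2 fold change was 1.589, the ratio of summed CPM 2.138, the widest fold within a genotype 1.56, and 39 genes of the other lists were called. The log2 fold changes that turned positive were 1.767 for *Tubb3*, 1.243 for *Snap25*, 1.908 for *Syt1*, 0.574 for *Gap43* and 0.782 for *Dcx*, and *Tubb3*, *Stmn2*, *Nefl*, *Nefm*, *Snap25* and *Syt1* were the genes called. That fit leaves out the highest *OsxCre* and the lowest *OsxCre;Stat3fl/fl* library for most of these genes, so its direction follows in part from the choice. The causes were not tested. The deviations of same-numbered libraries from their group means had correlations of -0.101, -0.518 and -0.085 across genes. With 3 libraries per genotype these values cannot show whether the numbers pair the samples, so pairing is not known.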

Other observations

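Besides *Map2*, other genes that neural cells are known to express strongly had almost no counts. *Gpm6a*, a neuronal membrane glycoprotein gene, had at most 3 counts in any library, *Syn2*, a synapsin gene, at most 4, *Slc1a2*, a glutamate transporter gene of astrocytes, at most 7, and *Mbp*, a myelin gene, at most 10. How the authors' counting treated these genes is not known here.

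Schwann cell genes went in both directions. *Pmp2*, a lipid-binding protein of myelin, had 13.2, 11.3 and 13.1 CPM in *OsxCre* and 2.63, 5.87 and 5.37 CPM in *OsxCre;Stat3fl/fl* (log2 fold change -1.43, standard error 0.28, adjusted p = 0.0596 by edgeR). *Erbb3*, the neuregulin receptor of Schwann cells, had 12.9, 13.5 and 12.6 CPM in *OsxCre* and 28.4, 18.3 and 24 CPM in *OsxCre;Stat3fl/fl* (log2 fold change 0.86, standard error 0.17, adjusted p = 0.0596 by edgeR). Over the 14 alternatives *Pmp2* was called in 4 and *Erbb3* in 3. The ranges of the genotypes did not overlap for either gene, which was so for 3 of 16 Schwann cell genes, beside 23% of all genes tested.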
